A study of Mus musculus with 32 samples.

Results

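This account concerns the mRNA levels of 10 genes of the NF-κB system in cultured mouse chondrocytes, the cells that make cartilage. They are 4 of the 5 NF-κB subunit genes (Nfkb1, Nfkb2, Rela and Relb), the 3 classical IκB genes (Nfkbia, Nfkbib and Nfkbie) and the 3 genes of the nuclear, atypical IκB proteins (Nfkbid, Nfkbiz and Bcl3). They were chosen by symbol, with earlier results of these data known, and all 10 matched 1 gene each among 41388 gene identifiers in the count files. Rel, which encodes the fifth subunit, is given for comparison. In GRCm38, on the gene models used for the deposited counts, the subunit genes lie at chr3:135584655-135691547 (Nfkb1), chr19:46304737-46312090 (Nfkb2), chr19:5637483-5648130 (Rela) and chr7:19606217-19629438 (Relb). The classical IκB genes lie at chr12:55489411-55492647 (Nfkbia), chr7:28758251-28767512 (Nfkbib) and chr17:45555716-45563169 (Nfkbie), and the nuclear IκB genes at chr7:30421732-30428746 (Nfkbid), chr16:55811375-55838899 (Nfkbiz) and chr7:19808462-19822770 (Bcl3).

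RNA was sequenced from unpassaged primary sternal chondrocytes of C57BL/6 pups in 32 libraries, 2 for each of 16 conditions. Wild-type cells received no virus and were left untreated or were given FX11 (40 µM, an inhibitor of lactate dehydrogenase A), IL-1β (10 ng/mL) or both for 24 h. Chondrocytes of 3 floxed lines (LDHA flox, NAMPT flox and NFKBIZ flox) received an adenovirus for 24 h, either with eGFP as control (GFP virus) or with eGFP and Cre recombinase (Cre virus), and then 24 h with or without IL-1β at 10 ng/mL. Every floxed culture, controls included, therefore carried loxP sites and an eGFP adenovirus. Cre virus was not given to cells without loxP sites, so an effect of the virus or of Cre itself cannot be told apart from that of the deletion within a line. The labels number the libraries in 2 series of titles, set 1 and set 2. The wild-type, LDHA flox and NAMPT flox conditions hold 1 library of each set, while both NFKBIZ flox libraries of a condition belong to set 2. The labels do not say that the 2 libraries of a condition came from separate animals or cultures, so the p-values measure only the spread between these libraries.

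NF-κB transcription factors are dimers of Rel-homology proteins. Rela and Relb encode subunits with a transactivation domain, while Nfkb1 and Nfkb2 encode the precursors p105 and p100, which are processed to the DNA-binding subunits p50 and p52. The classical inhibitors IκB-α (Nfkbia), IκB-β (Nfkbib) and IκB-ε (Nfkbie) hold dimers in the cytoplasm until IL-1β signalling through the IκB kinase complex marks them for degradation, and Nfkbia is a known NF-κB target that restores the inhibitor. The nuclear IκB proteins IκB-ζ (Nfkbiz), BCL3 (Bcl3) and IκBNS (Nfkbid) have the same ankyrin repeats but act on chromatin with p50 or p52, and IκB-ζ is needed for a set of secondary response genes such as Il6 and Lcn2.

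Promoter sequence is shown first, because the members are known both as carriers and as targets of NF-κB. RefSeq windows (assembly GRCm38.p6) of the 250 bases before a transcription start were held for 7 of the 10 genes, 11 windows in all, and the NF-κB consensus of 10 bases was searched in them on both strands. It was present for Nfkb2, Nfkbia, Nfkbid and Nfkbie, 4 of the 7 genes, against 2225 of 27025 genes (8.23%) and 2379 of 32817 windows (7.25%) among all promoters of that length. The stretches that hold it are printed 5′ to 3′ on the gene's strand, with matched bases in capitals; overlapping matches and matches read on both strands run together in 1 stretch of capitals.
Nfkb2, chr19:46304678-46304736, plus strand: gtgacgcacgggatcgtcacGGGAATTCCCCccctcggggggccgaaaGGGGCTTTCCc
Nfkbia, chr12:55492648-55492696, minus strand: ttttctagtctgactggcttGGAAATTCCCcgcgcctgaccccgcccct
Nfkbie, chr17:45555574-45555623, plus strand: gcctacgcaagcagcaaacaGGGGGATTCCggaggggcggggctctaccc
Nfkbid, chr7:30422160-30422254, plus strand: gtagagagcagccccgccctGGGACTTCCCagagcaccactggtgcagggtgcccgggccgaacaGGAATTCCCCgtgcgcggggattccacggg
The matches lay close to the start in Nfkb2 (bases 39 to 30 and 11 to 2 before it) and Nfkbia (29 to 20), and farther away in Nfkbie (106 to 97) and Nfkbid (226 to 217 and 181 to 172). Nfkbid had 3 windows, and its matches lie before a later start. The window before its first start, and that of its last, held none. These letters were not in the windows of Rela, Nfkbib and Bcl3, and the match is a description of sequence and not a measured binding site. Other starts of Nfkb2 also held a match, and 1 of them is shown, since it lies in a window of its own farther from the first start.
Nfkb2, another start, chr19:46305685-46305734, plus strand: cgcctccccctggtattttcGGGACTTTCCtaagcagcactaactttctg

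Total counts ran from 15830658 to 39959888 a library (median 25363482), and set 1 was deeper than set 2 (medians 36042740 and 22985558). Levels are given as CPM, counts scaled by library size, after TMM scaling, which corrects library size by a trimmed mean of gene ratios. The targeted genes followed the labels: Ldha was at 72.9 to 118 CPM in the 4 Cre libraries of LDHA flox and at 869 to 1557 CPM in the 4 GFP libraries of that line, and Nampt was at 4.63 to 6.86 against 54.6 to 68.4 CPM in NAMPT flox. All 9 chondrocyte markers were present in every library, with Col2a1 at 11250 CPM or more. In the floxed lines the 9 macrophage markers summed to 13.7 to 53.7 CPM, mostly Cd68, with Ptprc at 1.21 CPM or less and Adgre1 at 2.01 CPM or less; wild-type libraries summed to 56.2 to 87.1 CPM in set 1 and 95.1 to 203 CPM in set 2. In set 2, the wild-type library labelled FX11 held 2016 CPM of Mmp3, a matrix protease induced by IL-1β, and the library labelled IL-1β held 0.784 CPM, whereas the corresponding libraries of set 1 held 1.20 and 9125 CPM. The wild-type libraries therefore stand apart from their labels in set 2 and are described last. The main tests of the floxed lines do not use them. Levels given here and below use them in part, since the 1 CPM minimum and TMM scaling took in all 32 libraries. The correlations and the fit of all 32 libraries given below include them.

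IL-1β was first compared with no stimulation in the GFP cultures of the 3 floxed lines, 6 libraries against 6, which addresses the response of cells with intact target genes. All 10 members were called higher with IL-1β by edgeR's quasi-likelihood test, among them Nfkbid, which was tested only through its stimulated libraries, where 28% of 14283 genes were called higher and 28.3% lower. The fold changes spanned from 1.37-fold for Rela to 14.9-fold for Bcl3, and the nuclear IκB genes had the largest median (log2 fold change 3.42), against 0.86 for the classical IκB genes, 0.79 for the subunits and -0.01 over all genes tested. Chondrocyte marker transcripts moved in the same comparison, with their sum at 71720 to 93830 CPM without and 26460 to 32920 CPM with IL-1β; the macrophage list stood at 13.7 to 21.6 and 25.9 to 48.0 CPM. Their part in the responses below was not tested, and in cultures of this kind fewer cells of a type and less RNA per cell cannot be told apart.

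**Figure D1:**
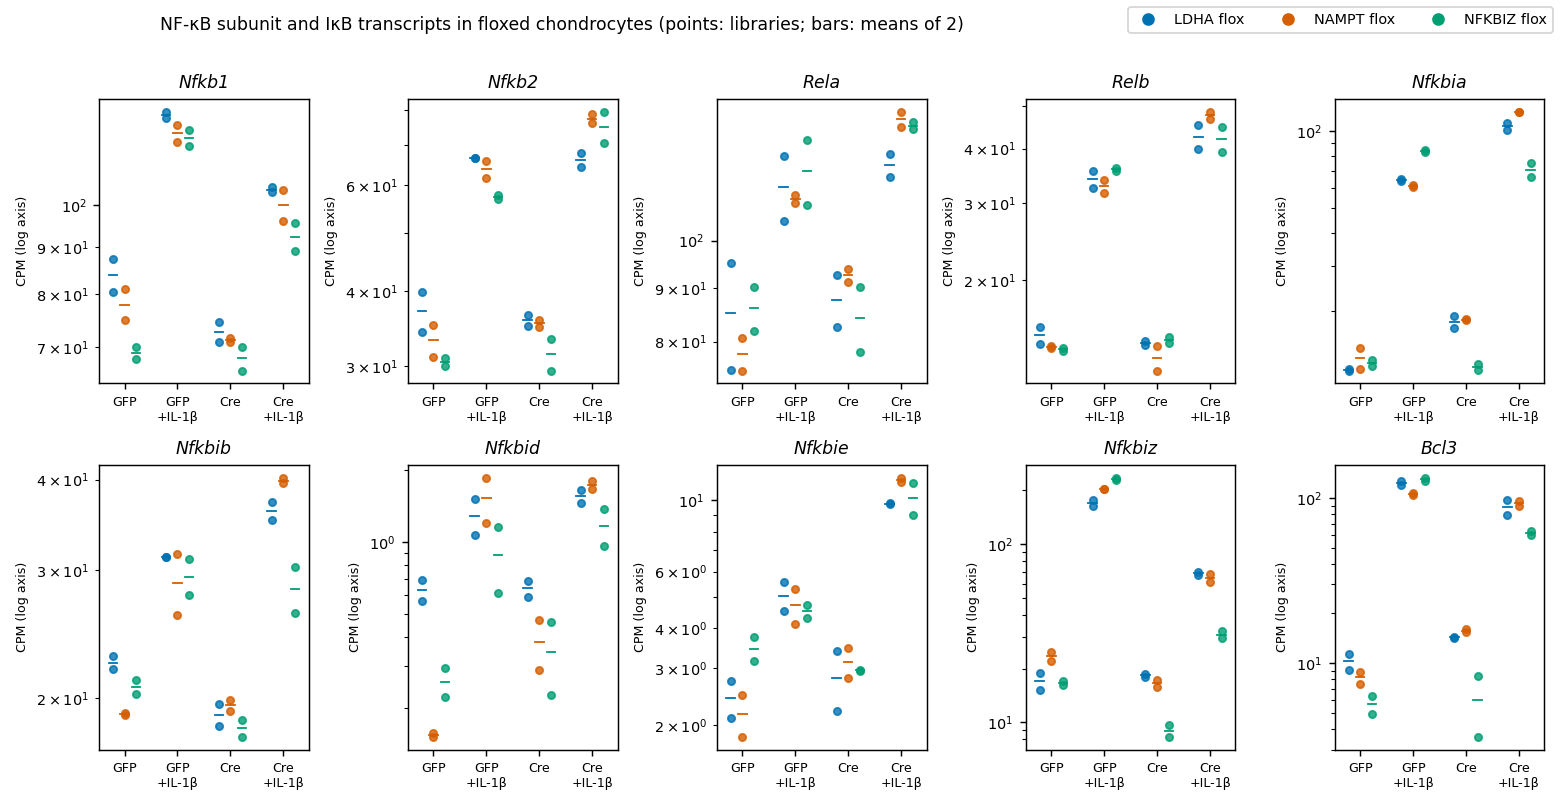
Level of each of the 10 genes in the 24 floxed-line libraries, in CPM on a log axis, by virus and IL-1β; each point is 1 library, each short bar the mean of the 2 libraries of a condition, and colours mark the lines. With IL-1β, Nfkbiz reached 164 to 235 CPM in GFP cultures and 29.5 to 69.7 CPM in Cre cultures, whereas Nfkbie was higher in Cre cultures (9.02 to 11.8 CPM) than in GFP cultures (4.14 to 5.56 CPM).

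Among the subunits, Relb, the partner of p52 in the non-canonical pathway, changed most. It lay between 13.8 and 15.7 CPM (median 14.1) in unstimulated GFP libraries and between 31.7 and 36.1 CPM (median 34.7) with IL-1β, without overlap, a log2 fold change of 1.27 ± 0.058 (SE, n = 6 and 6, adjusted p = 1.2e-11). Nfkb2, which encodes p100 and p52, went from 30.1 to 39.9 CPM (median 32.7) to 57.1 to 66.7 CPM (median 63.8), again without overlap, and rose by 0.92 ± 0.051 (adjusted p = 1.27e-10). The genes of the prototypical p50 and p65 dimer changed less. Nfkb1 lay at 68.0 to 87.3 CPM (median 77.7) and then at 116 to 126 CPM (median 121), a log2 fold change of 0.67 ± 0.046 (adjusted p = 2.21e-09). Rela lay at 75.1 to 95.2 CPM (median 81.2) and then at 104 to 125 CPM (median 110), a log2 fold change of 0.46 ± 0.052 (adjusted p = 1.04e-06). Neither gene's groups overlapped. Rel was low in both groups, at 4.60 to 5.86 and 4.49 to 6.91 CPM, and did not pass the test (log2 fold change 0.15, 95% interval -0.10 to 0.41, adjusted p = 0.289).

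Of the classical inhibitors, Nfkbia showed the largest change. It lay between 11.8 and 14.4 CPM (median 12.1) without IL-1β and between 60.4 and 84.6 CPM (median 64.4) with it, a log2 fold change of 2.48 ± 0.073 or 5.57-fold (adjusted p = 3.78e-14). Every stimulated library lay far above every unstimulated one. Nfkbie, a low transcript, rose by 0.86 ± 0.145 (adjusted p = 8.27e-05), from 1.84 to 3.76 CPM (median 2.62) to 4.14 to 5.56 CPM (median 4.63). Nfkbib, the inhibitor gene usually described as not inducible, rose by 0.54 ± 0.059 (adjusted p = 6.6e-07), from 19.0 to 22.8 CPM (median 20.7) to 26.1 to 31.6 CPM (median 31.2). The groups of all 3 genes were separate. Part of the exons of Nfkbib overlaps Ccer2 and Sirt2 in the annotation, and since the use of strand in counting is not stated, reads there cannot be assigned to 1 gene with certainty.

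The nuclear IκB genes held the largest responses. Bcl3 went from 4.90 to 11.4 CPM (median 8.20) to 105 to 132 CPM (median 123), a log2 fold change of 3.90 ± 0.118 or 14.9-fold (adjusted p = 5.75e-14). Nfkbiz went from 15.2 to 24.8 CPM (median 17.9) to 164 to 235 CPM (median 203), a log2 fold change of 3.42 ± 0.092 or 10.7-fold (adjusted p = 1.23e-14). For both genes every stimulated library was far above every unstimulated one. Nfkbid was near the limit of detection, at 0.152 to 0.688 CPM (median 0.259) and then 0.609 to 1.85 CPM (median 1.18), with overlapping groups. It was tested because the IL-1β libraries passed the minimum of 1 CPM, so its log2 fold change of 1.80 ± 0.34 (adjusted p = 0.000262) carries little weight, and it was not tested at all under several of the alternative filters and left-out libraries.

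**Figure D2:**
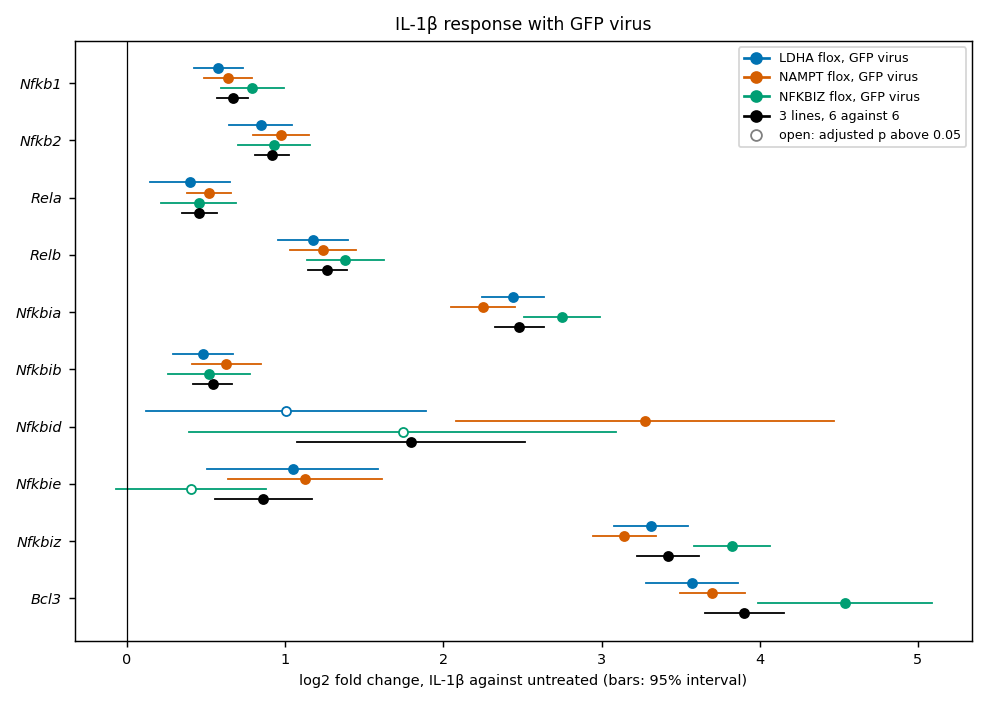
Log2 fold change of each gene, IL-1β against untreated, in GFP cultures of each line (2 libraries against 2) and over the 3 lines (6 against 6, black), with 95% intervals; filled points have an adjusted p of 0.05 or less and open points do not. The intervals of Nfkbiz, Bcl3 and Nfkbia lie above 2 in every line, and the open points belong to Nfkbid in LDHA flox and NFKBIZ flox and to Nfkbie in NFKBIZ flox.

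The response was then taken line by line in the GFP cultures. Here 9 members were called higher in LDHA flox (background 14.5% of genes higher), 10 in NAMPT flox (17.7%) and 8 in NFKBIZ flox (15.2%), and no member was called lower. The NAMPT flox count includes Nfkbid, which was tested only through stimulated libraries. It lay there at 0.152 to 0.158 CPM without and 1.20 to 1.85 CPM with IL-1β. Nfkbiz was at 18.9 and 15.2 CPM and then 177 and 164 CPM in LDHA flox, at 22.1 and 24.8 and then 202 and 204 CPM in NAMPT flox, and at 16.1 and 17.0 and then 235 and 229 CPM in NFKBIZ flox. Bcl3 was at 11.4 and 9.12 and then 127 and 119 CPM in LDHA flox, at 8.88 and 7.52 and then 108 and 105 CPM in NAMPT flox, and at 4.90 and 6.37 and then 132 and 127 CPM in NFKBIZ flox. Both genes had their highest stimulated levels in NFKBIZ flox, and Bcl3 also had its lowest unstimulated level there. The IL-1β response of NFKBIZ flox minus the mean of the other lines was higher for Nfkbiz by 0.58 (log2, adjusted p = 0.00301), for Bcl3 by 0.89 (adjusted p = 0.0229) and for Nfkbia by 0.39 (adjusted p = 0.0457), 3 members called higher against 3.04% of 16727 genes. The Bcl3 difference was not called without LDHA flox replicate 1 (0.83, adjusted p = 0.13), LDHA flox replicate 2 (0.94, 0.0662), NAMPT flox replicate 1 (0.82, 0.194) or NAMPT flox replicate 2 (0.93, 0.107), or with DESeq2 (0.89, 0.0673). The Nfkbia difference was not called without any 1 of the 6 replicates (0.33 to 0.46, highest adjusted p = 0.246) or with limma (0.37, 0.0518). Since both NFKBIZ flox libraries belong to set 2, line and set are partly bound together here. Marker sums also differed between the lines in unstimulated GFP cultures. Fibroblast and perichondrial markers stood at 1186 and 1375 CPM in NFKBIZ flox against 5092 to 6065 CPM in the other lines. Macrophage markers stood at 21.3 and 21.6 against 13.7 to 16.7 CPM. Their part in the line difference was not tested. Within single lines, 4 calls rested on single libraries. Rela in LDHA flox (log2 fold change 0.40) was lost without GFP replicate 2 (0.24, adjusted p = 0.138) or GFP with IL-1β replicate 1 (0.30, 0.165), and in NFKBIZ flox (0.45) without GFP replicate 1 (0.38, 0.0974) or GFP with IL-1β replicate 1 (0.35, 0.115). Nfkbie in LDHA flox (1.05) was lost without the same libraries (0.88, adjusted p = 0.0544, and 0.89, 0.0713), and Nfkbib in NFKBIZ flox (0.52) without GFP replicate 1 (0.48, 0.0625) or GFP with IL-1β replicate 2 (0.43, 0.0816).

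Levels were compared between genes per kilobase of exon (RPKM from the TMM-scaled counts). In unstimulated GFP cultures the order was Rela (30.6 ± 3.01 RPKM, SD, n = 6), Nfkb1 (16.1 ± 1.53), Nfkb2 (10.2), Nfkbib (9.55), Nfkbia (7.95), Nfkbiz (3.79), Relb (3.69), Bcl3 (3.23), Nfkbie (1.11) and Nfkbid (0.148). Neighbours from Nfkb2 to Nfkbia overlapped in range, as did those from Nfkbiz to Bcl3, and the other neighbours did not. With IL-1β the order began with Bcl3 (48.2 ± 4.54), Nfkbia (44.2 ± 6.98), Rela (41.6 ± 2.97) and Nfkbiz (40.2 ± 5.55), whose neighbouring ranges overlapped. Nfkb1 (25.3), Nfkb2 (19.1), Nfkbib (13.8), Relb (8.81), Nfkbie (1.97) and Nfkbid (0.525) followed without overlap between neighbours. Nfkbia, Nfkbiz and Bcl3 thus stood below Nfkb1 and Rela without IL-1β and beside Rela with it.

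The summed level of a class per summed level of the 4 subunits describes the balance of transcripts, on the per-kilobase scale. Classical IκB transcripts stood at 0.308 ± 0.0163 per subunit transcript (SD, n = 6) in unstimulated GFP cultures and at 0.633 ± 0.079 with IL-1β. Nuclear IκB transcripts stood at 0.118 ± 0.0196 and 0.939 ± 0.0862, so that nuclear IκB went from 0.386 ± 0.0748 to 1.49 ± 0.0742 transcripts per classical IκB transcript. None of the 3 ratios overlapped between the groups. Within the classical class, Nfkbia made up 42.7% ± 3.42 and then 73.5% ± 3.36, while Nfkbib made up 51.3% ± 3.03 and then 23.2% ± 2.87. Within the subunits, Rela went from 50.4% ± 3.74 to 43.8% ± 1.86 and Relb from 6.09% ± 0.157 to 9.30% ± 0.497, and Nfkb1 made up 26.6% ± 2.2 and 26.7% ± 0.739; only the share of Relb was separate between the groups among these 3. These are ratios of RNA and say nothing of protein.

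**Figure D3:**
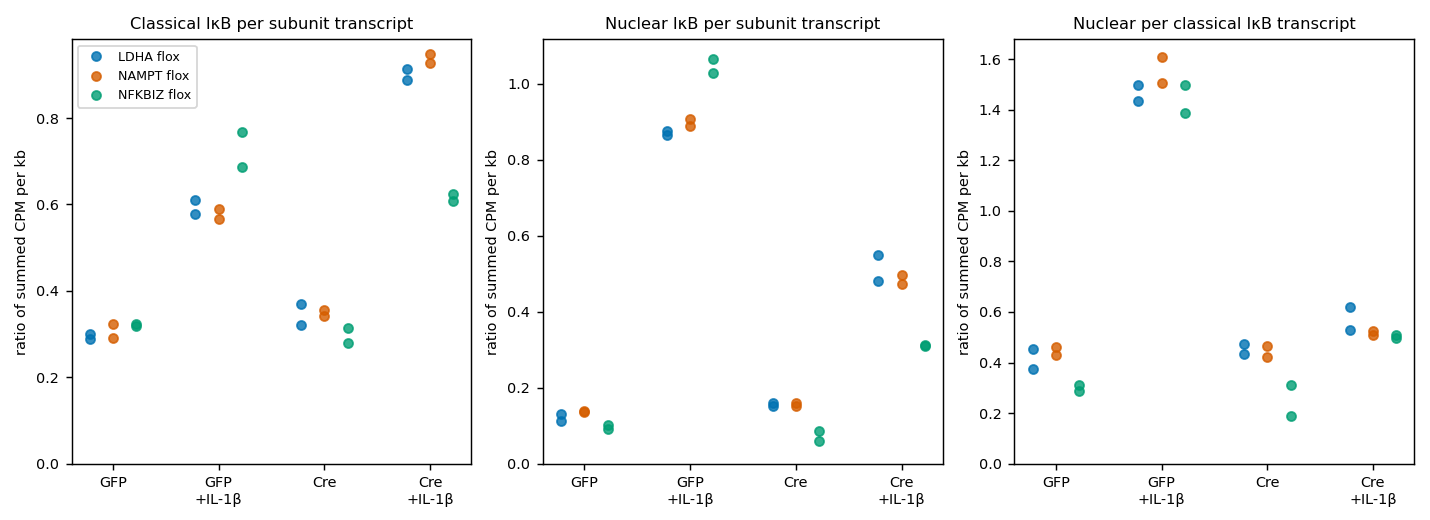
Ratios of summed transcript level per kilobase in the 24 floxed-line libraries, by virus and IL-1β, for classical IκB per subunit, nuclear IκB per subunit and nuclear per classical IκB; each point is 1 library and colours mark the lines. Nuclear per classical IκB lay at 1.39 to 1.61 in GFP cultures with IL-1β and at 0.499 to 0.620 in Cre cultures with IL-1β, with no overlap. Nfkbiz, part of the nuclear sum, is the targeted gene in NFKBIZ flox, so a lower nuclear sum with Cre virus is built in there.

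Next, Cre cultures were compared with GFP cultures under IL-1β. Within a line this comparison cannot tell loss of Ldha, Nampt or Nfkbiz apart from an effect of the virus or of Cre itself. Over the mean of the 3 lines 9 members were called, 6 higher (background 24.8% of 16727 genes higher) and 3 lower (29.1%). Nfkbiz is the targeted gene in NFKBIZ flox, so its place among the lower members is partly fixed by the design. Nfkbiz, Bcl3 and Nfkb1 were lower with Cre virus, while Nfkbie, Nfkbia, Relb, Nfkb2, Nfkbib and Rela were higher. Of the 3 nuclear IκB genes 2 were called lower and Nfkbid was not called, and all 3 classical IκB genes were called higher, with medians of -0.60 and 0.46 on the log2 scale against -0.04 over all genes. In NFKBIZ flox alone the classical median was -0.07, with 1 gene called higher and 2 not called. Markers of cell types differed by line in the same comparison. Chondrocyte marker sums were lower with Cre virus in LDHA flox (14770 and 13880 against 26890 and 27310 CPM) and NAMPT flox (15190 and 14820 against 27090 and 26460 CPM) and higher in NFKBIZ flox (36810 and 39400 against 32920 and 30630 CPM), and every macrophage sum followed the same order (22.6 and 26.6 against 31.3 and 34.7 CPM, 19.0 and 19.4 against 28.1 and 25.9 CPM, and 53.7 and 51.1 against 48.0 and 46.7 CPM). Endothelial sums were higher with Cre virus, at 21.9 to 29.5 against 8.75 to 10.9 CPM in LDHA flox and NAMPT flox and 9.80 and 10.6 against 7.27 and 6.56 CPM in NFKBIZ flox. The highest of these sums are mostly Kdr, which reached 21.8 CPM in the floxed lines, where no other gene of the list passed 5.19 CPM (Vwf). Sums of fibroblast and perichondrial markers were lower, at 2441 to 2884 against 4108 to 4784 CPM in LDHA flox and NAMPT flox and 951 and 1006 against 1097 and 1058 CPM in NFKBIZ flox. Their part in the differences below was not tested.

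Nfkbiz was lower in every line. In NFKBIZ flox, where it is the targeted gene, its values were 29.5 and 32.3 CPM with Cre virus and IL-1β against 235 and 229 CPM with GFP virus and IL-1β, a log2 fold change of -2.93 ± 0.105 (adjusted p = 2e-09). Counts were made over the whole gene, so reads from exons that Cre leaves in place would still be counted, and the IL-1β response that remained in Cre cultures (log2 fold change 1.79 ± 0.114, adjusted p = 5.43e-07) may be counted on such exons or in undeleted cells, which cannot be told apart. In LDHA flox, where Nfkbiz is not targeted, the values were 69.7 and 66.9 CPM against 177 and 164 CPM, a log2 fold change of -1.30 ± 0.096 (adjusted p = 6.64e-06). In NAMPT flox they were 67.7 and 60.8 CPM against 202 and 204 CPM, a log2 fold change of -1.64 ± 0.083 (adjusted p = 7.58e-08). The 2 groups were separate in all 3 lines, and each call was kept without any 1 library. Over the 3 lines the mean was -1.97 ± 0.051 (adjusted p = 3.17e-19), which takes in the line where Nfkbiz is targeted. The Cre effect in NFKBIZ flox minus the mean of the other lines was called lower for 4 members (Nfkbiz, Nfkbia, Bcl3 and Nfkbib), against 18% of genes, and for Nfkbiz it was -1.41 ± 0.108 (adjusted p = 4.07e-10). Nfkbiz is targeted in NFKBIZ flox alone, so its place in this count is fixed by the design.

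Bcl3 was lower by -0.60 ± 0.084 over the lines (adjusted p = 2.42e-06). Its values with Cre and GFP virus were 59.5 and 62.7 against 132 and 127 CPM in NFKBIZ flox, where it fell by 1.10 on the log2 scale (SE 0.207, adjusted p = 0.00265). They were 79.3 and 96.8 against 127 and 119 CPM in LDHA flox, a log2 fold change of -0.46 (adjusted p = 0.0105), which was not called without GFP with IL-1β replicate 1 (-0.45, adjusted p = 0.0518) or Cre with IL-1β replicate 1 (-0.34, adjusted p = 0.0808). They were 88.9 and 96.5 against 108 and 105 CPM in NAMPT flox, a difference that missed the threshold (-0.18, 95% interval -0.36 to -0.01, adjusted p = 0.0802) and passed it with the library set as a replicate block (-0.18, adjusted p = 0.0113). The fall was larger in NFKBIZ flox than the mean of the other lines (-0.74 ± 0.18, adjusted p = 0.00228). Nfkbid, the third nuclear IκB gene, overlapped between the groups (0.609 to 1.85 and 0.956 to 1.79 CPM) and did not pass the test in any line.

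Nfkbie was higher in every line, and it is the member whose rise with Cre virus was largest. Its values with Cre against GFP virus were 9.76 and 9.79 against 5.56 and 4.52 CPM in LDHA flox, 11.8 and 11.4 against 5.29 and 4.14 CPM in NAMPT flox, and 9.02 and 11.3 against 4.31 and 4.74 CPM in NFKBIZ flox. All 6 Cre libraries lay above all 6 GFP libraries. The log2 fold changes were 0.97 ± 0.228 (adjusted p = 0.00886), 1.30 ± 0.199 (adjusted p = 0.000303) and 1.15 ± 0.204 (adjusted p = 0.00187), with a mean of 1.14 ± 0.101 (adjusted p = 1.59e-09). The rise in NFKBIZ flox minus that of the other lines was 0.04, with a 95% interval of -0.41 to 0.49. The LDHA flox call was lost without GFP with IL-1β replicate 2 (0.84, adjusted p = 0.0606) or Cre with IL-1β replicate 1 (0.96, adjusted p = 0.0515).

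Nfkbia was higher with Cre virus where Ldha or Nampt was targeted and not where Nfkbiz was. Its values were 107 and 101 against 65.0 and 63.8 CPM in LDHA flox (log2 fold change 0.72 ± 0.081, adjusted p = 0.000105) and 118 and 119 against 61.6 and 60.4 CPM in NAMPT flox (0.98 ± 0.083, adjusted p = 3.61e-06). They were 66.0 and 75.0 against 82.9 and 84.6 CPM in NFKBIZ flox, lower in both libraries but short of the threshold (-0.27, 95% interval -0.48 to -0.05, adjusted p = 0.0851). The difference between the lines was itself called, at -1.07 ± 0.098 (adjusted p = 8.58e-09), and was kept in all 11 alternatives. Nfkbib had the same order in smaller size, with 35.2 and 37.3 against 31.3 and 31.3 CPM in LDHA flox (adjusted p = 0.0564, and 0.0304 with the library set as a replicate block), 39.5 and 40.2 against 31.6 and 26.1 CPM in NAMPT flox (0.48, adjusted p = 0.00174, and 0.35, 0.0625, without both replicates 2) and 30.3 and 26.2 against 27.7 and 31.1 CPM in NFKBIZ flox (adjusted p = 0.722). Its difference between NFKBIZ flox and the others (-0.39, adjusted p = 0.0121) was not called without NAMPT flox replicate 2 (-0.32, adjusted p = 0.0782) or NFKBIZ flox replicate 2 (-0.20, adjusted p = 0.287).

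**Figure D4:**
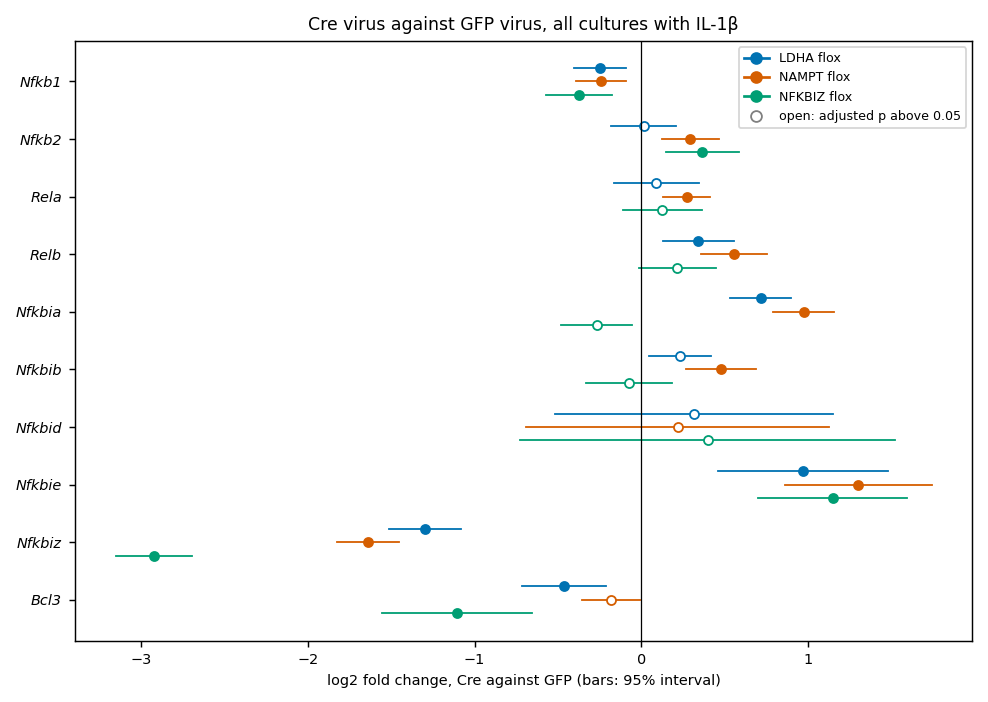
Log2 fold change of each gene, Cre against GFP virus with IL-1β present, in each floxed line (2 libraries against 2), with 95% intervals; filled points have an adjusted p of 0.05 or less and open points do not. Nfkbiz lies below -1 and Nfkbie above 0.9 in all 3 lines, whereas Nfkbia lies above 0.7 in LDHA flox and NAMPT flox and below 0 in NFKBIZ flox.

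The subunits changed less and in different directions. Nfkb1 fell by 0.30 on the log2 scale over the lines (SE 0.039, adjusted p = 8.51e-07), with 89.1 to 105 CPM in the 6 Cre libraries against 116 to 126 CPM in the 6 GFP libraries and no overlap. Relb rose by 0.36 (SE 0.051, adjusted p = 2.54e-06), with 39.4 to 48.6 against 31.7 to 36.1 CPM and no overlap. Nfkb2 rose by 0.21 (SE 0.049, adjusted p = 0.000699) with overlapping groups, at 64.5 to 79.6 and 57.1 to 66.7 CPM. Rela rose by 0.15 (SE 0.053, adjusted p = 0.0188), at 115 to 133 and 104 to 125 CPM, and was not called without LDHA flox replicate 2 (0.11, adjusted p = 0.153), NAMPT flox replicate 1 (0.16, 0.0661) or NAMPT flox replicate 2 (0.16, 0.0666). The mean rise of Nfkbib (0.20, adjusted p = 0.00396) was likewise lost without NAMPT flox replicate 2 (0.15, adjusted p = 0.0649) or NFKBIZ flox replicate 1 (0.14, 0.051). No subunit gene differed by the test between NFKBIZ flox and the other lines, with the 95% intervals of the 4 differences reaching from -0.42 to 0.47.

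Line by line, 6 members were called in LDHA flox (3 higher and 3 lower, against 16.9% and 17% of 15880 genes), 8 in NAMPT flox (6 and 2, against 25% and 23.4% of 16136 genes) and 5 in NFKBIZ flox (2 and 3, against 8.16% and 9.2% of 15356 genes). The calls in NFKBIZ flox include the targeted gene, Nfkbiz. Among the subunits the calls in single lines were small and most rested on single libraries. Nfkb1 was called in all 3 lines (-0.25, -0.24 and -0.37), but in LDHA flox not without any 1 of the 4 libraries compared (adjusted p = 0.0587 to 0.0801), in NAMPT flox not without Cre with IL-1β replicate 2 (-0.18, 0.112), and in NFKBIZ flox not without GFP with IL-1β replicate 1 (-0.35, 0.122) or replicate 2 (-0.40, 0.0714). Relb was called in NAMPT flox (0.56, adjusted p = 0.000395), where the call was kept without any 1 library. Its call in LDHA flox (0.34) was lost without GFP with IL-1β replicate 1 (0.38, 0.0508) or replicate 2 (0.29, 0.11) or Cre with IL-1β replicate 1 (0.23, 0.16). Nfkb2 was called in NAMPT flox (0.29) and NFKBIZ flox (0.37); without NAMPT flox GFP with IL-1β replicate 2 (0.25, 0.0686), NAMPT flox Cre with IL-1β replicate 2 (0.28, 0.0509), either GFP library with IL-1β of NFKBIZ flox (0.36, 0.164, and 0.38, 0.14) or NFKBIZ flox Cre with IL-1β replicate 2 (0.28, 0.0978) the call of that line was lost. Rela was called in NAMPT flox only (0.27), and not without Cre with IL-1β replicate 1 (0.21, 0.0604).

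The transcript balance shifted with these changes. In Cre cultures with IL-1β, nuclear IκB stood at 0.437 ± 0.102 per subunit transcript and classical IκB at 0.818 ± 0.158, against 0.939 ± 0.0862 and 0.633 ± 0.079 in GFP cultures with IL-1β (SD, n = 6). The classical ratio was higher with Cre virus in LDHA flox (0.901 against 0.594, means of 2 libraries) and NAMPT flox (0.938 against 0.578) and lower in NFKBIZ flox (0.616 against 0.727), while the nuclear ratio was lower in each line. The nuclear per classical ratio was 0.532 ± 0.0446 against 1.49 ± 0.0742, with no overlap. Bcl3 took a larger share of nuclear IκB transcripts (74.4% ± 4 against 54.2% ± 3.73) and Nfkbiz a smaller one (24.1% ± 4.05 against 45.1% ± 3.73). Nfkbiz is part of the nuclear sum, so in NFKBIZ flox, where it is targeted, a smaller share and sum are built in. Where it is not targeted, its share was 27.5% against 40.4% in LDHA flox and 25.2% against 48.2% in NAMPT flox. Nuclear IκB per subunit transcript there was 0.516 against 0.870 and 0.485 against 0.899 (means of 2 libraries).

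In Cre cultures of each line all 10 members were called higher with IL-1β, where 19.5%, 24.3% and 11.7% of genes were called higher in LDHA flox, NAMPT flox and NFKBIZ flox. Nfkbiz rose by 1.94, 2.01 and 1.79 on the log2 scale and Bcl3 by 2.65, 2.60 and 3.36, against 3.31, 3.14 and 3.82 for Nfkbiz and 3.57, 3.70 and 4.54 for Bcl3 in the GFP cultures. Relb rose by 1.60, 1.88 and 1.54, and Nfkbie by 1.82, 1.92 and 1.79. Nfkbid adds little to this count, since it was below 1 CPM in every unstimulated library and was tested through the stimulated ones. Its call was lost without any 1 of the 4 libraries compared in LDHA flox (log2 fold change 1.20 to 1.43) and in NFKBIZ flox (1.34 to 2.34). It was lost with DESeq2 in LDHA flox (adjusted p = 0.0652) and NFKBIZ flox (0.0696), and in NFKBIZ flox also with limma (0.095) and the filterByExpr filter (0.058). The call of Rela in LDHA flox (0.47) was lost without Cre replicate 2 (0.39, 0.0761) or Cre with IL-1β replicate 2 (0.41, 0.0727).

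The comparisons within a line share libraries, so their calls are not independent. The interaction of Cre virus and IL-1β, which tests whether the 2 responses differ, was called for 3 members in LDHA flox (11.5% of genes called), 5 in NAMPT flox (22%) and 2 in NFKBIZ flox (5.19%). Those in NFKBIZ flox include the targeted gene, Nfkbiz. Nfkbiz had a smaller response with Cre virus in all 3 lines, by -1.38 ± 0.141, -1.13 ± 0.123 and -2.03 ± 0.155 (adjusted p = 0.000292, 0.000116 and 1.07e-05). Bcl3 had a smaller response in LDHA flox (-0.92 ± 0.172, adjusted p = 0.00768) and NAMPT flox (-1.10 ± 0.123, adjusted p = 0.000144), and in NFKBIZ flox the estimate of -1.18 ± 0.348 missed the threshold (adjusted p = 0.0793). Relb had a larger response in NAMPT flox (0.64 ± 0.13, adjusted p = 0.00521). These 6 calls were kept without any 1 library. With the library set as a replicate block, Relb in LDHA flox (0.43, adjusted p = 0.0189) and Nfkbie in NAMPT flox (0.80, adjusted p = 0.0232) were called as well. The others were not: Nfkbib in LDHA flox (0.49) was lost without any of 6 of the 8 libraries (highest adjusted p = 0.114), Nfkbib in NAMPT flox (0.45) without any of 7 (0.129), Nfkbia in NAMPT flox (0.48) without any of 6 (0.119) and Nfkbie in NFKBIZ flox (1.39) without any of 6 (0.0948). The value of Nfkbia without NAMPT flox GFP replicate 2 was 0.28, the lowest of these.

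Without IL-1β, Cre virus moved fewer members. Over the mean of the 3 lines 4 were called (19% of 16727 genes called), of which Nfkbia rose by 0.36 ± 0.056 (adjusted p = 4.69e-05) and Nfkbiz fell by 0.43 on the log2 scale (SE 0.061, adjusted p = 1.35e-05). The mean for Nfkbiz takes in NFKBIZ flox, where it is the targeted gene, so its place in this count is partly fixed by the design. Nfkbia was at 17.1 and 19.1 against 11.8 and 12.0 CPM in LDHA flox, at 18.6 and 18.4 against 12.0 and 14.4 CPM in NAMPT flox and at 11.8 and 12.5 against 12.2 and 12.9 CPM in NFKBIZ flox. The groups were separate in LDHA flox and NAMPT flox and overlapped in NFKBIZ flox, and the difference between the lines was called (-0.61 ± 0.123, adjusted p = 0.00329). Nfkbiz was at 9.65 and 8.28 against 16.1 and 17.0 CPM in NFKBIZ flox (-0.90 ± 0.117, adjusted p = 0.00385), a call that was lost without GFP replicate 2 (-0.86, adjusted p = 0.068) or Cre replicate 2 (-0.80, adjusted p = 0.0504). It was at 15.7 and 17.3 against 22.1 and 24.8 CPM in NAMPT flox (-0.51 ± 0.091, adjusted p = 0.00349) and at 18.7 and 18.0 against 18.9 and 15.2 CPM in LDHA flox, where the groups overlapped (0.08, 95% interval -0.15 to 0.31). Its fall in NFKBIZ flox exceeded the mean of the other lines (-0.69 ± 0.134, adjusted p = 0.00263), a call that was lost without NFKBIZ flox replicate 2 (-0.54). In this comparison 2 members were called, against 4.8% of genes, and Nfkbiz is among them as the targeted gene.

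Bcl3 went the other way than under IL-1β. In NAMPT flox it was higher with Cre virus alone, at 15.5 and 16.0 against 8.88 and 7.52 CPM (0.91 ± 0.095, adjusted p = 0.000106), and in LDHA flox it was at 14.4 and 14.3 against 11.4 and 9.12 CPM (0.46, adjusted p = 0.0807). In NFKBIZ flox the libraries with Cre virus differed from each other, at 8.37 and 3.59 CPM, and enclosed the GFP libraries at 4.90 and 6.37 CPM. The mean over the lines (0.49, adjusted p = 0.00364) was lost without NAMPT flox replicate 2 (0.45, adjusted p = 0.0551) or NFKBIZ flox replicate 1 (0.18, adjusted p = 0.211). The mean fall of Nfkb1 (-0.12, adjusted p = 0.0445) was lost without LDHA flox replicate 1 (-0.15, 0.0586) or 2 (-0.09, 0.321) or NAMPT flox replicate 1 (-0.11, 0.236) or 2 (-0.14, 0.112). Single lines held 1 called member in LDHA flox (5.52% of genes called), which was Nfkbia (0.59, adjusted p = 0.00509, a call lost without both replicates 1 or both replicates 2), 4 in NAMPT flox (14.4%) and 1 in NFKBIZ flox (0.26%), which was the targeted gene, Nfkbiz. With the library set as a replicate block, 3 members were called in LDHA flox, Nfkbia with Bcl3 (0.45, adjusted p = 0.0183) and Nfkb1 (-0.22, adjusted p = 0.0249), and in NAMPT flox Nfkb1 was called as well (-0.14, adjusted p = 0.0463). The fourth gene in NAMPT flox was Rela (0.24, adjusted p = 0.0271), lost without GFP replicate 2 (0.22, 0.0984) or Cre replicate 1 (0.26, 0.0762) or 2 (0.22, 0.15), beside Nfkbia (0.50, adjusted p = 0.00445), Nfkbiz and Bcl3.

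Other genes of the pathway were taken from hand-written lists, and the same IL-1β comparison in GFP cultures (28% of genes higher, 28.3% lower) was read for each. From receptor to kinase, 14 of 21 tested genes rose and 3 fell, among them Irak3, an inhibitory receptor-associated kinase (2.87), and the receptor chains Il1rap (1.55) and Il1r1 (1.29) among the higher, and Traf5 (-0.54), Tab1 (-0.43) and Tab2 (-0.36) among the lower. Of 8 genes around the IκB kinases, 5 rose and 1 fell; Ikbke (1.69), Tank (0.75) and Azi2 (0.42) were higher and Chuk, which encodes IKKα, was lower (-0.35). Of 16 genes of ubiquitin transfer and precursor processing, 5 rose, led by the ubiquitin ligase gene Birc3 (2.07), with Birc2 (0.29) and Cul1 (0.17), and 6 fell, with Rbck1 (-0.41), Uba3 (-0.29) and Skp1a (-0.16). Negative regulators were divided. Of 20 such genes, 10 rose, including the RNase gene Zc3h12a (4.27), the deubiquitinase gene Tnfaip3 (2.30) and Rnf11 (0.86), and 7 fell, including Pdlim2, which promotes degradation of nuclear RelA (-1.51), Nkiras2 (-0.45) and N4bp1 (-0.35). Of 14 nuclear cofactors, 6 rose, with Cebpd (3.23), Cebpb (1.61) and Stat3 (0.58), and 1 fell, Hdac2 (-0.15).

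With Cre virus under IL-1β, the mean over the lines (24.8% of genes higher, 29.1% lower) was lower for 7 and higher for 7 of the 21 genes from receptor to kinase, with Il1r1 at -1.28, Irak3 at -1.20 and Il1rap at -0.57. It was lower for 4 and higher for 2 of 8 kinase genes, with Ikbke at 0.92 and Tank at -0.52. The feedback genes were higher in 11 and lower in 4 of 20, with Pdlim2 at 2.43, Zc3h12a at -0.74 and Tnfaip3 at 0.30. Cofactors were lower in 6 and higher in 3 of 14, with Cebpd at -1.96 (adjusted p = 3.98e-20) and Cebpb at -0.85, and ubiquitin genes were lower in 6 and higher in 3 of 16, with Birc2 at -0.71.

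For each member the 3 genes most alike were found by Pearson correlation of log2 CPM over 28 libraries, leaving out the 4 Cre libraries of NFKBIZ flox, among 14932 genes. These libraries include the wild-type ones and share treatments, depth classes and controls, so the correlations are descriptions. Nfkbiz was most like Cebpd (r = 0.978), Sbno2 and Il6, and Bcl3 was most like Camkk2 (0.977), Zc3h12a and Lbp. Nfkbia was most like Tnfaip3 (0.973), Tnfrsf9 and 1110008P14Rik. Nfkb2 and Relb were each most like the other (0.973), followed by Epas1 and Slc11a2 for Nfkb2 and by Nfkbia and Slc11a2 for Relb. Nfkbie was most like P2ry2 (0.945), Tnip1 and Relb; Nfkb1 most like Pdzd2 (0.947), Gm15242 and Irak3; Rela most like Tnfrsf1b (0.921), Perm1 and Dstn. The lowest leading values belonged to Nfkbid (Stfa3, 0.904, then Tgfb1 and Ccl2) and Nfkbib (Pitpnm1, 0.873, then Bri3bp and Sh2b2).

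In wild-type cells, treated without virus, FX11 and IL-1β were compared to ask what chemical inhibition of lactate dehydrogenase does to the response. In set 1 Nfkbiz was at 16.0 CPM untreated, 15.8 with FX11, 260 with IL-1β and 194 with both; in set 2 it was at 9.30, 166, 9.86 and 133 CPM in the libraries with the same labels. Nfkbia was at 13.6, 16.3, 123 and 124 CPM in set 1 and at 13.1, 99.7, 11.8 and 96.8 CPM in set 2. Bcl3 was at 13.5, 9.15, 158 and 120 CPM in set 1 and at 16.7, 178, 15.9 and 170 CPM in set 2. In all 3 genes the library labelled IL-1β in set 2 lay near the untreated ones and the library labelled FX11 lay near those given IL-1β, the reverse of set 1. Nfkbie followed with 3.37, 5.09, 13.7 and 14.0 CPM in set 1 and 3.53, 11.6, 2.46 and 11.5 CPM in set 2.

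**Figure D5:**
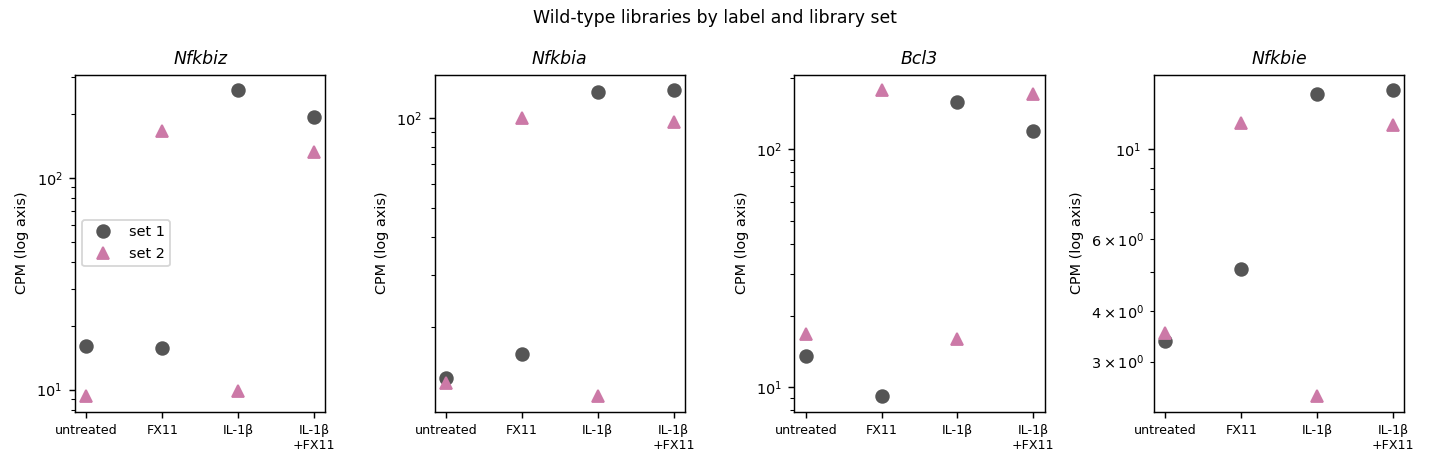
Level of 4 genes in the 8 wild-type libraries, in CPM on a log axis, by label; circles are set 1 and triangles set 2, and each point is 1 library. The library labelled FX11 is high and the library labelled IL-1β low in set 2 (Nfkbiz 166 and 9.86 CPM), while in set 1 the order is the opposite (15.8 and 260 CPM).

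As labelled, no gene was called in any of the 4 wild-type comparisons by edgeR's quasi-likelihood test (0% of 15461 genes), and so no member was. At an unadjusted p of 0.05, 153 genes passed for IL-1β against untreated, 68 for FX11 against untreated, 860 for both agents against untreated and 102 for both agents against IL-1β; DESeq2 called 6, 2, 153 and 1 genes, and limma called none with 135, 63, 1179 and 62 at an unadjusted p of 0.05. The interval for Nfkbiz with both agents against IL-1β reached from -3.25 to 3.80 on the log2 scale, so no difference of the size seen in the floxed lines was detectable here. Leaving out the set 2 libraries labelled IL-1β and FX11, edgeR called 1, 0, 1 and 0 genes. In both libraries given IL-1β and FX11 together Nfkbiz was at 133 and 194 CPM and Bcl3 at 170 and 120 CPM, above the untreated libraries of their sets, and the comparison with IL-1β alone rests on 1 library a group in set 1 (260 and 194 CPM for Nfkbiz), with no replicate check.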

How the data were processed

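Libraries were depleted of ribosomal RNA. Per the labels and the study's methods, the authors mapped reads with STAR (GRCm38, Ensembl gene models) and, with featureCounts, summed per gene only reads that were unique and unambiguous; versions differ between the sources, and use of strand is not stated. The deposited counts are raw whole numbers per gene; deposited CPM and RPKM columns were not used. Groups came from the labels.

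The main tool was edgeR 4.0.16 under R 4.3.3 (TMM, quasi-likelihood test, two-sided, Benjamini-Hochberg over all genes tested, called at an adjusted p of 0.05 or less), and with limma 3.58.1 (voomWithQualityWeights, the authors' tool) and DESeq2 1.42.0 as alternatives. Genes over 1 CPM in at least 1 library (5 for 6 against 6) were tested, and 355 ribosomal RNA genes were left out. Each line was fitted over its 8 libraries, contrasts between or over lines over 24 libraries with the library set as a covariate, and the 6 against 6 comparison with line and set. Symbols came from GENCODE M21, which names 40340 of 41388 identifiers, and coordinates came from the exons given with the deposited counts. Members, lists and tests were chosen with earlier results of these data known. All 10 members were named, and of each list the 3 higher and 3 lower genes with the smallest adjusted p. Other settings were the size factors of DESeq2, 2 other filters, the library set as a block, other sets of libraries and left-out replicates. The 2 libraries of a condition always differed by more than sampling noise. Tested on simulated data for IL-1β in GFP cultures of LDHA flox, the fit recovered 197 of 200 genes changed 2-fold among 15040, with 8 false calls; for 6 against 6 it recovered 200 among 14113, and for the Cre effect under IL-1β between lines 174 among 15384. The changed genes were drawn from well-counted genes, with the same spread for every gene and no difference between lines or sets. These rates therefore do not cover low genes such as Nfkbid or the spread of the real libraries. Depth ran from 15830658 to 39959888 counts a library.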

Additional observations from a re-analysis of the deposited data

Results flagged for a closer look

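Nfkbiz stood out because its response to IL-1β differed between Cre and GFP cultures in all 3 lines, by -1.378 (log2) in LDHA flox, -1.131 in NAMPT flox and -2.031 in NFKBIZ flox, where it is the targeted gene. The same interaction was called for Bcl3 in LDHA flox (-0.919) and NAMPT flox (-1.095), for Relb in NAMPT flox (0.643), for Nfkbib in LDHA flox (0.491) and NAMPT flox (0.447), for Nfkbia in NAMPT flox (0.476) and for Nfkbie in NFKBIZ flox (1.385). The last 4 calls were lost without single libraries.

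A second set of results was noted because NFKBIZ flox differed from the mean of LDHA flox and NAMPT flox by a test of the difference. Under IL-1β the Cre effect was lower by -1.414 for Nfkbiz, -1.07 for Nfkbia, -0.739 for Bcl3 and -0.389 for Nfkbib. Without IL-1β it was lower by -0.685 for Nfkbiz and -0.61 for Nfkbia. Nfkbiz is the targeted gene of NFKBIZ flox, so a lower Cre effect on it there is fixed by the design. With GFP virus the IL-1β response was larger by 0.583 for Nfkbiz, 0.893 for Bcl3 and 0.392 for Nfkbia. Leaving out 1 replicate of a line could end the calls of Bcl3 and Nfkbia in this GFP response. The same held for the calls of Nfkbib under IL-1β and of Nfkbiz without it. Both NFKBIZ flox libraries of each condition come from set 2, and the library set as a covariate rests on the other lines.

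Single libraries lay far from the rest of their group in 2 cases. Relb was at 15.68 CPM in LDHA flox GFP replicate 1, the highest of 6 unstimulated GFP libraries, and at 12.44 CPM in NAMPT flox Cre replicate 2, the lowest of 6 unstimulated Cre libraries. Chance alone would mark about 1 group in 20 in this way, and 40 groups were looked at.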

How the results depend on the processing

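The edgeR model was set against DESeq2, limma, other filters, other sets of libraries and left-out replicates. Of 124 calls of a member, DESeq2 lost 5, limma 2, no filter beyond 1 count 3, filterByExpr 1 and the fit of 24 floxed-line libraries 1. A fit of all 32 libraries lost 58, whose log2 fold changes moved by at most 0.06, and leaving out libraries ended a call 131 times in all; this fit takes in the wild-type libraries that stand apart from their labels, and the cause was not tested. In the 6 against 6 comparison no call was lost where the member was tested, but Nfkbid was tested in only 8 of 14 alternatives. Where 1 library of a group was left out, the lone library was assumed to vary like the other groups. Counting depth limits chiefly Nfkbid, and no setting speaks to the Cre virus itself.

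With all 32 libraries in 1 fit, the members called fell from 9 to 3 and the genes from 4424 to 1414 for IL-1β in LDHA flox GFP cultures, from 10 to 5 and 5693 to 3129 in Cre cultures, from 6 to 0 and 5392 to 2822 for Cre under IL-1β, from 1 to 0 and 877 to 89 for Cre without IL-1β and from 3 to 0 and 1825 to 312 for the interaction. In NAMPT flox they went in the same order from 10 to 6 and 5642 to 2191, for genes alone from 7091 to 4080, from 8 to 1 and 7808 to 4934, from 4 to 0 and 2319 to 300, and from 5 to 0 and 3552 to 748. In NFKBIZ flox they went from 8 to 4 and 4120 to 1982, for genes alone from 3391 to 1092, from 5 to 0 and 2666 to 851, from 1 to 0 and 40 to 23, and from 2 to 0 and 797 to 40. In wild type, where edgeR called 0, this fit called 52 genes for IL-1β, 2 for FX11, 1561 genes and 7 members for both agents against untreated, and 16 genes for both agents against IL-1β.

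The fit of 24 floxed-line libraries called 1463 genes for Cre without IL-1β in LDHA flox, and in NFKBIZ flox 5388 for IL-1β in Cre cultures, 4366 for Cre under IL-1β, 256 for Cre without it and 1861 genes and 4 members for the interaction. DESeq2 called 2 members for Cre without IL-1β in LDHA flox and 71 genes in NFKBIZ flox, and in wild type 6, 2, 153 and 1 genes. Without a filter 2 members were called for Cre without IL-1β in LDHA flox, and in NFKBIZ flox 170 genes for that effect and 1325 for the interaction, with 8 genes in wild type for both agents against untreated. limma called 1195 genes, not 736, for the line difference in the GFP response. Without the wild-type libraries labelled IL-1β and FX11 of set 2, chosen after seeing the data, 1 gene was called for IL-1β and 1 for both agents against untreated.

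With the replicate block, in which the number stands for the library set, 3 members and 1994 genes were called for Cre without IL-1β in LDHA flox, 3374 genes for its interaction, and in NAMPT flox 4311 and 5648 genes. Deviations of same-numbered libraries correlated at 0.286 to 0.484 in LDHA flox, 0.289 to 0.380 in NAMPT flox and -0.133 to 0.713 in wild type over 6 pairs of groups each. There are only 2 sets, and the labels do not say what the libraries of a set share. The block changed the call of 7 member results in all, each from not called to called, and of no other member result. For NFKBIZ flox no block could be fitted. No paired analysis was possible because both libraries of each NFKBIZ flox condition belong to set 2 and no label ties them across conditions.

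Leaving out replicates gave these ranges. LDHA flox had 2352 to 3551 genes for IL-1β in GFP cultures, 2620 to 4233 in Cre cultures, 2 to 5 members and 2353 to 3999 genes for Cre under IL-1β, 0 to 1 and 168 to 622 without it, and 1081 to 1577 genes for the interaction. NAMPT flox had 3260 to 4392, 4178 to 5771, 4 to 8 members and 4871 to 6487 genes, 2 to 3 and 935 to 1662, and 3 to 4 members. NFKBIZ flox had 1444 to 2799, 1523 to 5177, 3 to 5 and 1239 to 3733, 0 to 1 and 13 to 32, and 1 to 2 and 344 to 1892. The line difference had 1 to 4 members and 359 to 1818 genes without IL-1β and 1 to 2 and 285 to 1184 in the GFP response, and the mean Cre effect without IL-1β had 2 to 5 and 1881 to 4021. The sign turned for the uncalled line differences of Nfkbie under IL-1β (0.042, range -0.062 to 0.141, negative without LDHA flox replicate 1, NAMPT flox replicate 1 or NFKBIZ flox replicate 2) and of Bcl3 without IL-1β (-0.614, range -1.521 to 0.085, positive without NFKBIZ flox replicate 2).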
